A study of Mus musculus with 6 samples.

Results

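Fgf23 encodes a fibroblast growth factor that acts as a hormone. Together with its receptors Fgfr1, Fgfr2 and Fgfr3 and its coreceptor Kl, it was examined in 3 subsets of mouse thymic endothelial cells (ECs). The 5 genes were taken by symbol, 1 row each, from the 24457 gene rows on chromosomes. Fgf23 was chosen for its large stepwise rise between the subsets, so its differences are given as a description with no test. The receptors and Kl were chosen for their known relation to Fgf23.

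ECs were sorted from the thymus of wildtype female C57BL/6 mice aged 4 to 6 weeks as CD31+CD45-EpCAM- cells, with no agent or allele in any group. Type I was Ly6c+ Selp-, type II was Ly6c+ Selp+ and type III was Ly6c- Selp+, with 2 libraries of each and 6 in all. The study compared these subsets to find the ECs through which blood-borne progenitors enter the thymus. Each subset is defined by 2 surface markers at a sort purity of at least 90%, and nothing states whether the 2 libraries of a subset came from separate mice, so p-values measure only the spread between these libraries, which may be technical.

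FGF23 is best known as a hormone of bone. Osteocytes and osteoblasts secrete it, and in the kidney it lowers phosphate reabsorption and the production of active vitamin D. It binds FGF receptors, which are tyrosine kinases, with high affinity only where the transmembrane protein Klotho (Kl) is present as coreceptor, whereas most other FGFs use heparan sulfate for that contact and act close to where they are made. Receptor signalling through FRS2 and the ERK kinases switches on feedback inhibitors such as the Sprouty and Spred proteins and the phosphatase Dusp6.

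Values are FPKM, fragments per kilobase of transcript scaled to the mapped total of a library. The libraries held between 1452476 and 2423171 fragments as estimated from the deposited confidence bounds, and 3 fragments corresponded to a median FPKM of 0.386 to 0.652. The 8 endothelial markers summed to between 1829 and 2337 FPKM in every library, with Pecam1 and Cdh5, which define ECs, high in all 6. As the sort required, Selp was higher in type III than in type I (log2 difference 6.31) and Ly6c1 was lower (-3.42). Replicate 1 of each subset carried more myeloid RNA than replicate 2 (221 and 30.0 FPKM summed over 6 markers in type I, 79.6 and 32.0 in type II, 371 and 65.8 in type III). Pericyte and smooth muscle markers summed to 462 and 176 FPKM in type I, 407 and 268 in type II, and 92.8 and 137 in type III, and 4 of the 6 (Pdgfrb, Rgs5, Cspg4 and Des) were lower in both type III libraries than in both type I libraries. Of the other 2, Acta2 was higher (13.7 and 7.53 FPKM in type I, 16.9 and 33.8 in type III) and Myh11 overlapped (17.7 and 9.40, 14.8 and 32.9). All 4 B cell markers were higher in both type III libraries than in both type I libraries (sums of 4.58 and 3.15 against 14.6 and 8.08 FPKM), and the erythroid markers summed to 84.2 and 140 FPKM in type I against 0 and 11.0 in type III. Thymocyte markers summed to 130 and 39.7 FPKM in type I, 86.5 and 57.5 in type II, and 198 and 85.7 in type III. Mesenchymal or fibroblast markers summed to 179 and 105, 333 and 183, and 130 and 127 FPKM in the same order. Thymic epithelial markers summed to 75.2 and 27.1, 38.1 and 33.2, and 67.96 and 20.05 FPKM. The part of these cell types in the results was not tested.

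Fgf23 lay on the plus strand of chromosome 6 (chr6:127022920-127032314, mm9), with 3 exons in GENCODE mouse release 1 and no other gene overlapping it. The 250 bases before its start are shown because Fgf23 is the member with the large difference between the subsets. The sequence is that of RefSeq (GRCm38.p6, chr6:127072652-127072901, plus strand), and it was found once in mm9 chromosome 6, ending 1 base before the first base of Fgf23 in the deposited files. The capitals mark the single motif match found.
Fgf23 upstream: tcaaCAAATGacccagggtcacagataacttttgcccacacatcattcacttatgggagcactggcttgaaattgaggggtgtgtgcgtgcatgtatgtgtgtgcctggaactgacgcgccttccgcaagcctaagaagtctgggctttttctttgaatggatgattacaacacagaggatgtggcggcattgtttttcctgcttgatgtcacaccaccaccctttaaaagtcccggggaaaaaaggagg

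The 6 motifs searched on both strands were the TATA box (TATAAA), the CCAAT box (CCAAT), the E-box (CANNTG), an AP-1 site (TGANTCA), a STAT site (TTCCNGGAA) and the kappaB consensus. The match above was an E-box, CAAATG, at positions -246 to -241 from the start, and 66.2% of 32851 upstream windows of this length hold an E-box. The other 5 motifs had no match in this window, against shares of 12.4% (TATA box), 33.8% (CCAAT box), 6.75% (AP-1), 0.913% (STAT) and 3.9% (kappaB) of all windows. An E-box also stood upstream of Fgfr2, of Kl and of 1 of the 2 listed starts of Fgfr3, the last with a CCAAT box too. The table used holds a window for 4 of the 5 genes, and that for Fgfr1 was not analysed here.

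Fgf23 was near the detection limit in type I, plentiful in type II and among the most abundant transcripts in type III. In type I it stood at 0.255 and 0.204 FPKM, values that rest on 2 fragments in each library. In type II it reached 26.1 and 37.4 FPKM (155 and 342 fragments). In type III it reached 155 and 172 FPKM (854 and 1648 fragments). No library of one subset overlapped with a library of another, and every type III library lay above every type II library. The means were 0.229 ± 0.036, 31.8 ± 8.02 and 163.6 ± 11.8 FPKM (SD, n = 2 each). By mean FPKM, Fgf23 ranked 13488 of 24457 genes in type I, 1272 in type II and 250 in type III.

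On the scale used for all comparisons, log2(FPKM + 1), Fgf23 was higher in type II than in type I by 4.71, higher in type III than in type II by 2.35, and higher in type III than in type I by 7.06. Both replicate numbers gave steps of like size, 4.43 and 4.996 for the first step and 2.53 and 2.17 for the second. The added 1 compresses the first step, because type I lies well below 1 FPKM. Taken instead from pooled fragments, the level in type II was 145 times that in type I (95% interval 56.3 to 535), and the level in type III was 5.03 times that in type II (4.57 to 5.55). Between type III and type I the ratio was 730 (285 to 2682). These intervals cover counting error only, and the 4 fragments of type I set the width of those against type I.

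Among 11717 genes that reached 1 FPKM in 2 or more libraries, the difference of Fgf23 between type III and type I ranked first, ahead of Ackr1 at 6.51, an atypical chemokine receptor of venules. Between type II and type I it ranked 3, with Ackr1 first at 5.72, and between type III and type II it ranked 19, with Glycam1 first at 5.09. The order type I, type II, type III without overlap was shared by 485 rising genes (4.14%), and the opposite order by 425 (3.63%). Because samples were bulk sorted cells, fewer Fgf23-expressing cells and less Fgf23 RNA per cell cannot be told apart.

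Markers of bone cells, the classic source of FGF23, were low or at 0. Bglap and Ibsp (bone matrix proteins) were at 0 in all 6 libraries, and the 5 osteocyte and osteoblast markers summed to between 0.299 and 1.89 FPKM. Dmp1, a matrix protein of osteocytes, was at 0.373 and 0.299 FPKM in type I, 0.986 and 0.631 in type II, and 0 and 0.101 in type III. Sost, an osteocyte inhibitor of Wnt signalling, was at 0.342 and 0 FPKM in type I, 0.904 and 1.01 in type II, and 1.44 and 0.555 in type III, on 7 fragments or fewer a library, so both type III libraries lay above both of type I. Lyve1, a lymphatic marker, was at 12.4 and 1.07 FPKM in type III and at most 0.112 in the other 4 libraries, and Prox1, the transcription factor of lymphatic ECs, was at 3.05 and 3.22 FPKM in type III against 0.324 and 0.519 in type I. Limma did not call that Prox1 difference (adjusted p = 0.0577), but did with the replicate number as a block (adjusted p = 0.0288). Prox1 passed the filter only through type II and type III libraries, so a lower type I was built into its selection for the test. Flt4, a receptor of lymphatic and other ECs, was lower in type III, at 20.04 and 16.7 FPKM in type I and 9.45 and 7.15 in type III. Ccl21a, another lymphatic marker, was listed at 0 throughout. The lymphatic markers summed to 23.9 and 18.7 FPKM in type I, 12.4 and 9.85 in type II, and 30.1 and 13.3 in type III. The part of bone cells and lymphatic ECs in the result was not tested.

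**Figure D1:**
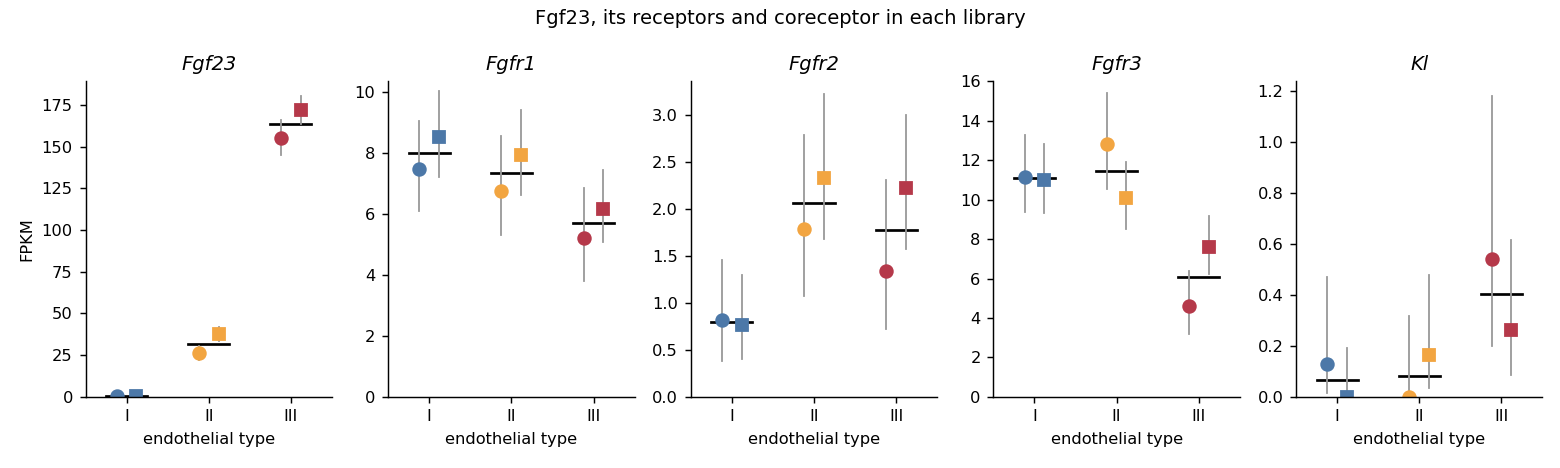
FPKM of Fgf23, Fgfr1, Fgfr2, Fgfr3 and Kl in each library of type I (blue), type II (orange) and type III (red) ECs, each panel on its own linear axis from 0. Circles are replicate 1, squares are replicate 2, black bars are means and grey lines are 95% intervals for counting error. Fgf23 went from 0.255 FPKM or less in type I to 155 and 172 FPKM in type III, while no receptor exceeded 12.8 FPKM.

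Fgf23 made up almost all of the summed FPKM of the FGF genes in type III. Its share of the summed FPKM of 22 FGF genes was 3.66% and 5.05% in type I, 73.9% and 79.9% in type II, and 94.5% and 96.4% in type III. The other 21 together stayed between 3.84 and 9.40 FPKM in every library. Fgf3, Fgf6, Fgf15, Fgf20 and Fgf22 were at 0 in all 6 libraries. Fgf15 and Fgf21 are the other hormone-like FGFs, and Fgf21 did not exceed 1.71 FPKM.

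Besides Fgf23, only Fgf1 and Fgf11 passed the filter. Fgf1, a ligand of all FGF receptors, was at 1.89 and 1.79 FPKM in type I, 4.64 and 4.28 in type II, and 1.92 and 1.95 in type III. Type II thus lay above both other subsets without overlap, but neither difference was called (limma, adjusted p = 0.455 against type I and 0.397 against type III). Mesenchymal or fibroblast markers also summed highest in type II (333 and 183 FPKM), against 179 and 105 in type I and 130 and 127 in type III. Their part in the Fgf1 values was not tested. Fgf11, an FGF that stays inside the cell, ranged from 0.547 to 1.91 FPKM and was not called in any comparison.

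**Figure D2:**
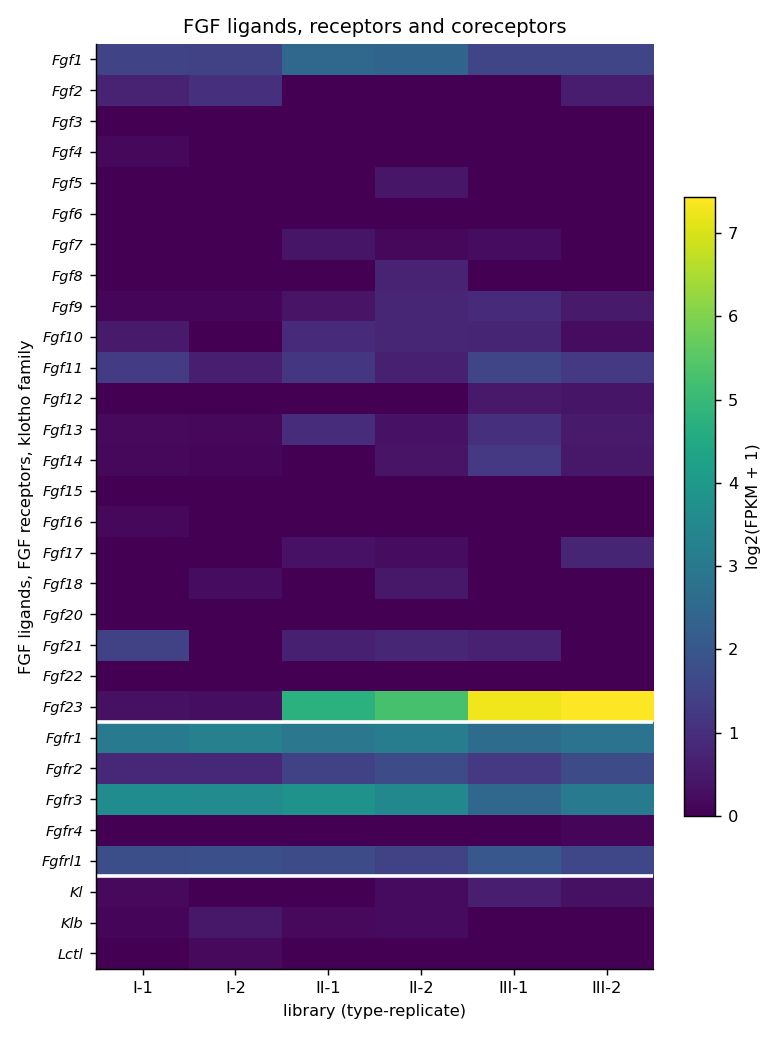
Heat map of log2(FPKM + 1) for the 22 FGF genes (top, labelled FGF ligands), 5 FGF receptors (middle) and 3 klotho family genes (bottom), with 1 column per library. Fgf23 in type II and type III is the brightest row, followed by Fgfr1 and Fgfr3 in all libraries, and most rows of the top part are at or near 0.

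The receptors were tested in the fit over all 11717 genes (limma, Benjamini-Hochberg adjustment). That fit called 0.393% of genes between type II and type I, 0.222% between type III and type II and 4.14% between type III and type I. None of the 3 receptor genes was called in any comparison. At an unadjusted p under 0.05, Fgfr3 alone passed, in both comparisons with type III. Over all genes that share was 7.48% between type II and type I, 9.99% between type III and type II and 14.1% between type III and type I, and the counts at an unadjusted p given for the lists, in this order, stand beside these shares. Subsets did not overlap for 33.6%, 41% and 37.9% of all genes in the same 3 comparisons.

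Fgfr3 (chr5:34064373-34079717, mm9, plus strand) had the highest level of the 3 receptors in type I and type II. It was at 11.2 and 11.0 FPKM in type I, 12.8 and 10.1 in type II, and 4.61 and 7.58 in type III. Both type III libraries lay below the other 4, without a call. The log2 difference was -0.84 between type III and type II and -0.80 between type III and type I (SE 0.31, adjusted p = 0.421 and 0.275). The difference was uneven, at -1.11 for replicate 1 and -0.48 for replicate 2 between type III and type I. From pooled fragments, the level in type III was 0.593 of that in type I (95% interval 0.482 to 0.727 for counting error only). The unadjusted limma p was 0.0307, which did not pass after adjustment over all genes. Of the 6 pericyte and smooth muscle markers, 4 were lower in type III and 1, Acta2, was higher (Pdgfrb, a receptor of pericytes, was at 39.0 and 24.2 FPKM in type I and 6.40 and 9.43 in type III), and their part in the Fgfr3 values was not tested.

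Fgfr1 (chr8:26629231-26686190, mm9, plus strand), the receptor usually named as the main partner of FGF23 and Klotho, was not called either. It was at 7.49 and 8.53 FPKM in type I, 6.77 and 7.95 in type II, and 5.21 and 6.19 in type III. Type I and type II overlapped, and both type III libraries were the lowest of the 6. The log2 difference between type III and type I was -0.43 (SE 0.29, adjusted p = 0.622), and the steps were -0.11 and -0.32 (adjusted p = 0.997 and 0.788). In type III its level overlapped with that of Fgfr3, so these 2 receptors could not be ranked there.

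Fgfr2 (chr7:137305965-137410322, mm9, minus strand) was the lowest of the 3 receptors and the only one with higher values in the Selp+ subsets. It was at 0.820 and 0.765 FPKM in type I (10 and 13 fragments), 1.79 and 2.33 in type II, and 1.33 and 2.22 in type III. Both type I libraries lay below the other 4, and type II and type III overlapped. The log2 difference was 0.76 between type II and type I and 0.61 between type III and type I (SE 0.37, adjusted p = 0.717 and 0.559). Fgfr2 passed the filter only through type II and type III, so a lower type I was built into its selection for the test.

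Of the other receptors, Fgfrl1, which lacks a kinase domain, was at 1.75 to 3.09 FPKM in all libraries and was not called. Fgfr4 was at 0 in 5 libraries and at 0.0878 FPKM, 1 fragment, in type III replicate 2. For each tested receptor, the 3 genes with the most similar profile over the 6 libraries (Pearson correlation of log2(FPKM + 1), among genes with a mean of at least 10 FPKM in 1 subset) were Col18a1, Hspa1a and Vps13d for Fgfr1 (0.974 to 0.981), Mib1, Nrp2 and Col15a1 for Fgfr2 (0.971 to 0.986) and Pak1ip1, Zcchc14 and Adcy6 for Fgfr3 (0.975 to 0.992). With 6 libraries in 3 subsets, such values are a description, and all genes share the depth of their library.

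The coreceptor Kl (chr5:151755182-151796392, mm9, plus strand) was close to the detection limit in every subset. It was at 0.129 and 0 FPKM in type I, 0 and 0.164 in type II, and 0.542 and 0.263 in type III. These values rest on 2 and 0, 0 and 3, and 6 and 5 fragments. Both type III libraries were the highest of the 6, but Kl did not pass the filter. From pooled fragments the ratio was 6.34 between type III and type I (95% interval 1.38 to 58.9) and 3.66 between type III and type II (0.966 to 20.4), for counting error only. With no filter, limma gave Kl a log2 difference of 0.39 between type III and type I and an adjusted p of 0.465. In type III, where Fgf23 was 163.6 FPKM, Kl was 0.403 ± 0.197 FPKM (SD, n = 2). The related coreceptor Klb, which serves FGF15 and FGF21, was at 0.394 FPKM or less and at 0 in both type III libraries, and Lctl was at 0 in 5 libraries.

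The inhibitors Spry1, Spry4 and Spred2 were lower in type III than in type I, and other inhibitors were not called. The pathway lists were chosen with earlier results of these data known, so their counts beside the shares of all genes are a description. Of 18 feedback and target genes of the FGF-ERK pathway, 16 were tested. Between type III and type I 3 were called lower and 1 higher, where 2.05% and 2.09% of all genes were called lower and higher. The 1 called higher, Flrt3, passed the filter only through type II and type III libraries. The median log2 difference of the 16 was -0.22, beside 0.08 for all genes tested. In 8 of the 16, both type III libraries lay below both type I libraries, and in 2 they lay above, against 17.1% and 20.7% of all genes. Between type II and type I, and between type III and type II, none was called. In the 3 comparisons 4, 3 and 8 of the 16 had an unadjusted p under 0.05. Of the 8 between type III and type I, Flrt3 and Spred1 were higher in type III and the rest lower.

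Spry4, a Sprouty inhibitor of receptor tyrosine kinase signalling, was at 30.5 and 30.2 FPKM in type I, 23.4 and 15.7 in type II, and 7.80 and 11.1 in type III. It fell by 1.60 between type I and type III on the log2 scale (SE 0.30, adjusted p = 0.017). Spry1, of the same family, was at 67.9 and 65.5 FPKM in type I, 46.0 and 37.3 in type II, and 22.8 and 34.0 in type III. Its log2 difference was -1.23 (SE 0.27, adjusted p = 0.0376). Spred2, which blocks activation of RAF, was at 32.9 and 30.0 FPKM in type I, 20.2 and 15.7 in type II, and 9.50 and 12.2 in type III, with a log2 difference of -1.46 (SE 0.27, adjusted p = 0.0164). These 3 inhibitors were lower at each step without overlap between subsets, as were 3.63% of all genes tested, in the order opposite to that of Fgf23. Il17rd of the same list had this order too without a call, with means of 3.97, 2.83 and 2.04 FPKM in type I, type II and type III.

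The gene called higher, Flrt3, encodes a transmembrane protein that binds FGF receptors. It was at 0.252 and 0.0674 FPKM in type I, 1.22 and 0.744 in type II, and 5.05 and 4.02 in type III, a log2 difference of 2.25 between type III and type I (SE 0.37, adjusted p = 0.00973). It reached 1 FPKM only in both type III libraries and 1 type II library, so a lower type I was built into its selection for the test. Other members were not called. Spred1, of the same family as Spred2, was higher in both type III libraries without a call, at 19.3 and 18.2 FPKM in type I, 30.4 and 23.2 in type II, and 29.4 and 27.4 in type III (log2 difference between type III and type I 0.58, adjusted p = 0.354). Dusp6, the ERK phosphatase, was at 71.7 and 59.8 FPKM in type I, 45.1 and 30.1 in type II, and 49.4 and 32.1 in type III. With the replicate number as a block, Dusp6 was called lower in type III than in type I as well (adjusted p = 0.0498, and 0.340 without the block). The transcription factor Etv5 was at 5.01 and 3.73 FPKM in type I, 2.09 and 2.08 in type II, and 2.33 and 2.00 in type III. Dusp5, Il17rd and Egr1 were lower in both type III libraries than in both type I libraries without a call. Their log2 differences were -0.64, -0.71 and -0.36 (limma, adjusted p = 0.292, 0.369 and 0.620). Spry2, Spred3, Dusp4, Etv1, Fos and Ccnd1 had log2 differences between type III and type I of 0.03, -0.07, 0.16, 0.04, -0.07 and -0.06.

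The calls of this list rested on all 4 libraries of the comparison. Without type I replicate 2 or type III replicate 1, 0 genes were called, and without type I replicate 1 or type III replicate 2, 1 was called. Of 15 alternative fits, Flrt3 was called in 13, Spry4 and Spred2 in 11 each, and Spry1 in 6, with adjusted p up to 0.304 for Spry1, and each kept its sign. Of the pericyte and smooth muscle markers, 4 of 6 were also lower in type III and 1 was higher, and their part in these values was not tested.

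Adaptors and kinases that carry the signal showed no call. All 16 (Frs2, Grb2, Gab1, Ptpn11, the Raf, Mek and Erk kinases and others) were tested, and 0 were called by limma in the 3 comparisons (2, 0 and 1 had an unadjusted p under 0.05). The lowest unadjusted p between type III and type I was that of Mapk3 (ERK1), at 100.5 and 87.6 FPKM in type I and 53.5 and 64.9 in type III (log2 difference -0.66, adjusted p = 0.208). The median log2 difference of the 16 was -0.10 between type III and type I.

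Heparan sulfate chains hold paracrine FGFs on their receptors, and 22 of 26 genes that carry, build or trim them were tested. Between type III and type I, 2 were called higher and 1 lower, against 2.09% and 2.05% of all genes. In the 3 comparisons 2, 4 and 6 of the 22 had an unadjusted p under 0.05. Sulf1, an extracellular sulfatase that removes sulfate groups from heparan sulfate and so lowers FGF binding, was at 4.12 and 3.14 FPKM in type I, 8.64 and 6.87 in type II, and 29.8 and 36.3 in type III. Sulf1 was higher at each step without overlap, as were Fgf23 and 4.14% of all genes tested. It differed by 2.88 between type III and type I (SE 0.29, adjusted p = 0.000783), and was also called between type III and type II (1.96, adjusted p = 0.0421). The call against type I held in all 15 alternative fits, and that against type II in 5, being lost when any 1 library was left out (adjusted p up to 0.22).

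Hs3st1, a sulfotransferase of heparan sulfate, was at 12.2 and 10.3 FPKM in type I, 14.5 and 16.9 in type II, and 39.8 and 46.2 in type III (log2 difference between type III and type I 1.84, SE 0.26, adjusted p = 0.00453). It was called in 14 of 15 alternative fits, with an adjusted p of 0.0512 without type III replicate 2. Gpc4, a glypican core protein, was at 11.9 and 7.33 FPKM in type I, 10.1 and 6.08 in type II, and 1.68 and 2.07 in type III, and fell by 1.85 (SE 0.36, adjusted p = 0.022). Gpc4 was called in 10 of 15 alternative fits and lost with no filter or when a type I or type III library was left out (adjusted p up to 0.137). The pericyte marker Rgs5 was at 346 and 114 FPKM in type I, 284 and 137 in type II, and 48.6 and 45.4 in type III, and 4 of the 6 markers of its list were lower in type III. Their part in the Gpc4 values was not tested. The list's median was 0.14, beside 0.08 for all genes.

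With the replicate number as a block, Sulf2, the second such sulfatase, was called higher between type III and type I (adjusted p = 0.0277) and the syndecan Sdc3 lower (0.0426). Neither was called without the block (adjusted p = 0.319 for Sdc3). Sulf2 was at 5.14 and 1.95 FPKM in type I, 4.10 and 5.16 in type II, and 11.3 and 12.1 in type III. Sdc3 was at 67.7 and 44.7 FPKM in type I, 33.2 and 23.1 in type II, and 37.1 and 29.4 in type III. It was called lower in type II than in type I under the block too (adjusted p = 0.0399, and 0.365 without the block). Between type III and type II the block also called Hs3st1 higher and Gpc4 lower (adjusted p = 0.022 and 0.0389, and 0.0775 and 0.136 without the block).

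**Figure D3:**
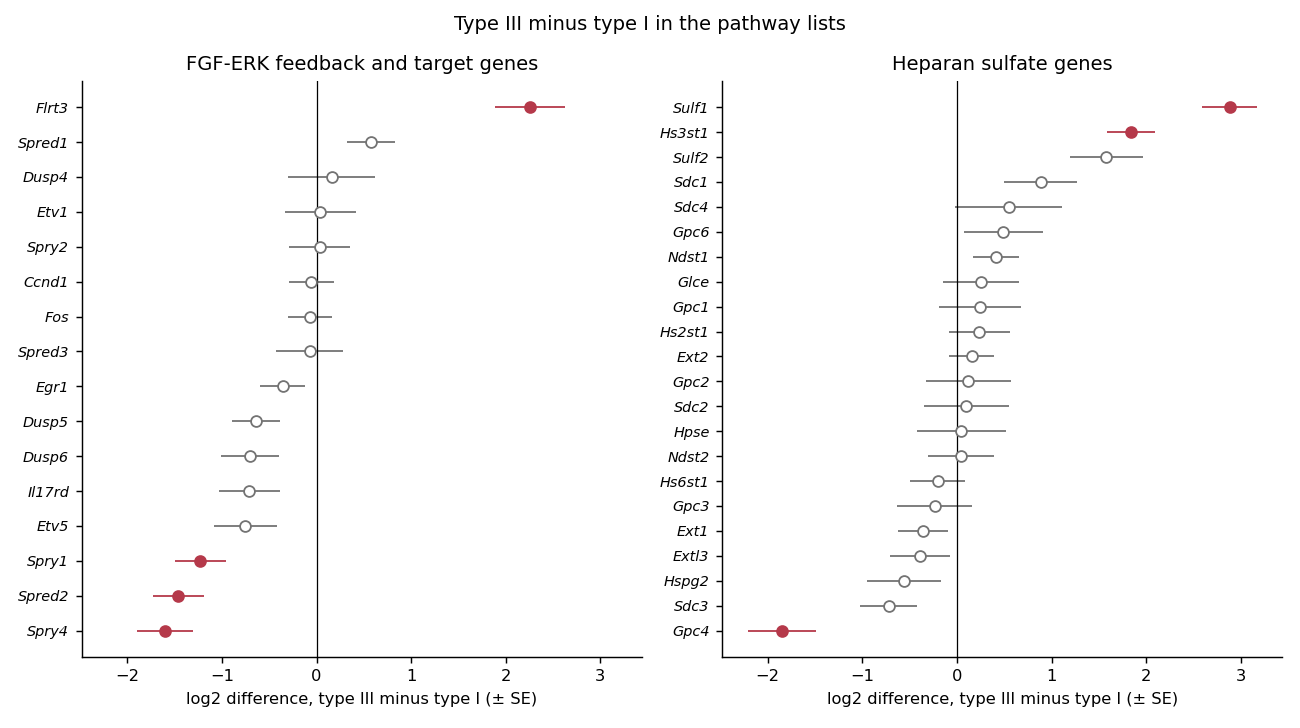
Log2 differences between type III and type I with their SE for the tested genes of the FGF-ERK feedback list (left, 16 genes) and the heparan sulfate list (right, 22 genes). Filled red points passed an adjusted p of 0.05 and open grey points did not. Spry4, Spred2 and Spry1 sit at the low end and Flrt3 at the high end on the left, and Sulf1 and Hs3st1 sit at the high end and Gpc4 at the low end on the right.

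Whether FGF23 leaves a cell intact depends on its processing, since GALNT3 protects it from cleavage, FAM20C marks it for cleavage and the proprotein convertases cut it. Of the 5 genes listed, 4 were tested and 0 were called by limma in any comparison (2, 1 and 1 had an unadjusted p under 0.05). Galnt3 was at 0.366 FPKM or less in every library and at 0 in 3. Furin, the convertase best known for cutting FGF23, was at 44.6 and 47.7 FPKM in type I, 30.0 and 28.7 in type II, and 24.6 and 27.1 in type III, without overlap, a falling order held by 3.63% of all genes tested. Its log2 difference between type III and type I was -0.81 (SE 0.23, adjusted p = 0.107), and the block called it lower (adjusted p = 0.0256). Pcsk6 was highest in type II, at 9.62 and 15.5 FPKM, against 3.37 and 4.07 in type I, and the block called that difference (1.49, adjusted p = 0.0282, and 0.143 without the block). Mesenchymal or fibroblast markers also summed highest in type II, and their part in the Pcsk6 values was not tested. Fam20c ranged from 1.28 to 5.41 FPKM.

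Of 16 genes listed as regulators of FGF23 production, 8 were tested and 0 were called by limma (1, 1 and 2 had an unadjusted p under 0.05). Hif1a, the oxygen-sensing transcription factor, was at 40.1 and 28.4 FPKM in type I, 72.1 and 56.5 in type II, and 87.7 and 56.7 in type III. Its log2 difference between type III and type I was 1.04 (SE 0.30, adjusted p = 0.109). The block called it higher in type II (0.0452, and 0.421 without the block) and in type III (0.00734) than in type I. Pth1r, the parathyroid hormone receptor, was at 4.26 and 1.39 FPKM in type I and 0.220 and 1.02 in type III and was not called. The vitamin D receptor Vdr did not exceed 0.934 FPKM, and Mepe and Cyp24a1 were at 0 throughout.

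Phosphate transport, the process FGF23 controls in kidney, was represented by 3 tested genes of 6, and 0 were called by limma (0, 0 and 1 had an unadjusted p under 0.05). Slc20a1 was at 24.9 and 21.5 FPKM in type I, 16.7 and 17.9 in type II, and 14.6 and 11.7 in type III (log2 difference between type III and type I -0.77, adjusted p = 0.179). The renal transporter gene Slc34a3 was at 0, and Slc34a1 and Slc34a2 were below the filter. Of 7 FGF binding proteins, 3 were tested and 0 were called (1, 0 and 0 had an unadjusted p under 0.05). Among those below the filter, Ncam1, an adhesion molecule that binds FGF receptors, was at 0 in both type I libraries, 0.0896 and 0.172 FPKM in type II, and 0.965 and 1.66 in type III.

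The genes with the profile most like that of Fgf23 over the 6 libraries, among 4867 with a mean of at least 10 FPKM in 1 subset, were Mycbp2, Rab3il1, Vwf, Kank1, Lrg1, Bst1, Serpina3f, Arrb1, Ctnnal1 and Pcdh7. Their Pearson correlations with Fgf23 ran from 0.993 to 0.997, as a description over 6 libraries. Vwf, the von Willebrand factor stored by ECs, went from 14.9 and 18.5 FPKM in type I to 163.5 and 259 in type II and 669 and 1095 in type III. Bst1, an ectoenzyme of NAD metabolism, went from 1.04 and 1.67 to 12.4 and 15.0 and then to 50.5 and 48.5 FPKM. Pcdh7, a protocadherin, went from 1.51 and 0.566 to 11.3 and 19.0 and then to 39.0 and 47.8 FPKM.

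A high correlation did not need a large change. Mycbp2, the first of the 10, was at 10.7 and 10.5 FPKM in type I and at 16.6 and 16.2 in type III, a log2 difference of 0.58. The 10 genes were chosen for this profile, so their differences are a description. The largest log2 difference among the 10 was 5.603, for Vwf, and none came near the 7.06 of Fgf23.

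**Figure D4:**
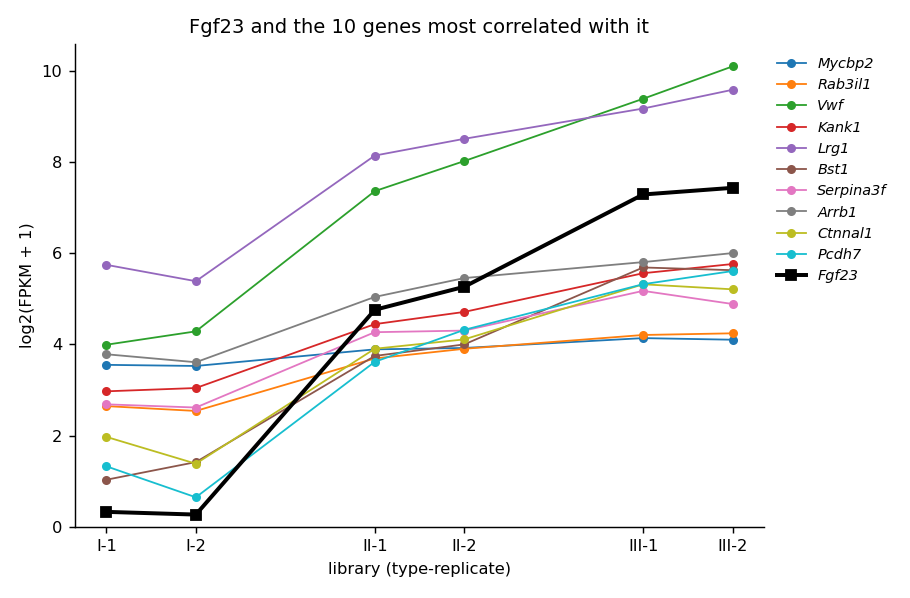
Log2(FPKM + 1) of Fgf23 (black squares) and of the 10 genes most correlated with it (coloured circles) in the 6 libraries, with lines joining the points of a gene. Each gene steps up from type I to type II to type III, and Fgf23 starts lowest and climbs by 7.06.

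No neighbour of Fgf23 was called. Within 500 kb the files list 14 other genes, of which 6 were tested and 0 were called by limma between type III and type I (2 had an unadjusted p under 0.05, against 14.1% of all genes). Fgf6, the nearest upstream gene and also an FGF, lies 48.2 kb away and was at 0 in all 6 libraries. Further upstream, D6Wsu163e ranged from 2.13 to 3.44 FPKM and Rad51ap1 from 0 to 1.41.

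The nearest gene downstream, 9630033F20Rik (Tigar in RefSeq, a regulator of glycolysis), has its nearer end 2.82 kb beyond the end of Fgf23 and is read from the other strand. It was at 0.830 and 1.03 FPKM in type I, 2.92 and 2.57 in type II, and 3.74 and 3.07 in type III, higher at each step without overlap, as were 4.14% of all genes tested. Its log2 difference between type III and type I was 1.19 (SE 0.34, adjusted p = 0.106, and 0.0517 with the replicate block), so it was not called. Ccnd2, a cell cycle gene 43.4 kb downstream, ranged from 20.9 to 36.2 FPKM (log2 difference -0.32, adjusted p = 0.737), and 9330179D12Rik was at 0 in 5 libraries.

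**Figure D5:**
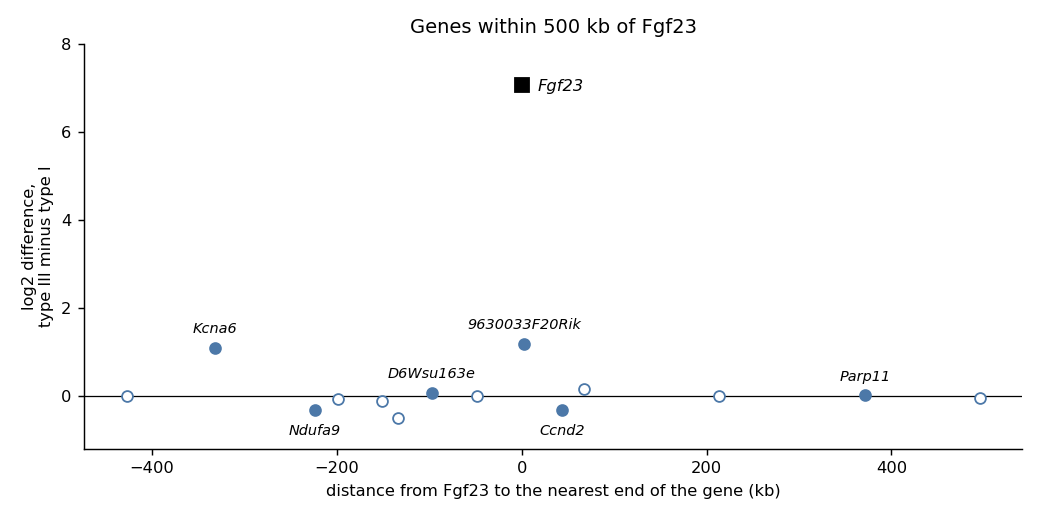
Log2 difference between type III and type I for Fgf23 (black square) and the 14 other genes within 500 kb, against their distance from Fgf23 in kb, with upstream genes to the left. Filled points were tested and none of them was called, and open points were below the filter. The neighbours lie at 1.19 or less, against 7.06 for Fgf23.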

How the data were processed

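RNA from 6 samples of sorted thymic ECs was sequenced (NEBNext Ultra libraries, Illumina HiSeq). The authors mapped the reads to mm9 and deposited FPKM per gene with its 95% confidence bounds, computed in each library separately and not scaled between libraries. The submitters' processing notes name CASAVA 1.8, TopHat2 2.0.10, Cufflinks 2.1.1 and Cuffdiff; the annotation is not given in the sources used here.

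Groups were taken from the sample titles. From the deposited FPKM, log2(FPKM + 1) was tested, for the 11717 genes reaching 1 FPKM in 2 or more samples, with limma 3.58.1 (R 4.3.3, eBayes with trend, all 6 samples in 1 fit, Benjamini-Hochberg adjustment, threshold 0.05). The fit was tested on simulated data. The 95 rows outside the chromosomes were left out. Cuffdiff needs reads and was not run. The paper used it and lists genes that differ between type I and type III. Its list holds Hif1a, Furin, Sdc3, Sulf2 and Slc20a1, which limma without the block did not call. It also holds Spry1, Spry4, Spred2, Sulf1, Hs3st1 and Gpc4, but not Fgf23, Vwf or Flrt3. An exact permutation test of 2 libraries against 2 cannot go below p = 0.333, so none was run.

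Fragments behind a value were estimated from its bounds, taken as counting error alone; 68.7% of those under 10 came within 0.05 of a whole number. Intervals are Poisson or binomial ones and cover counting error only. Positions were checked against GENCODE mouse release 1 and are 1-based. The members and gene lists were chosen with earlier results of these data known. Named genes are the members, list genes called in a comparison, all receptors and coreceptors, 3 neighbours on each side and the genes most correlated with a member. Other list genes were named after their values were seen.

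Libraries of the same replicate number deviated together (correlations of replicate 1 deviations 0.199 for types I and II, 0.306 for I and III, 0.180 for II and III), although the labels do not say what the number marks. Values with the number as a block are therefore given where they change a call of a pathway list gene or of Prox1. For the other cell type markers and the correlated genes they are not given. Alternatives were other pseudocounts, filters and scalings, the block, no trend, the compared subsets alone and each library left out.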

Additional observations from a re-analysis of the deposited data

Results flagged for a closer look

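Rows for reporter sequences outside the chromosomes, which no comparison uses, held signal above the level of 3 fragments. The row RGC-mRFP was at 18.2 and 1.83 FPKM in type I, 23.7 and 5.31 in type II, and 28.3 and 3.23 in type III, and was higher in replicate 1 of each subset. The row RGC-GFP stood at 1.76 and 0.938 FPKM in type I, 2.36 and 0 in type II, and 0.831 and 2.37 in type III, on 5 fragments or fewer a library. The labels give the mice as wildtype, and the source of these fragments was not tested.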

How the results depend on the processing

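Fgf23 was chosen for its stepwise rise and its subsets lay far apart, so its unchanged order under every alternative is no support for it. The sizes of its differences are given as a description. Its log2 difference between type II and type I was 6.58 and 5.44 with pseudocounts of 0.1 and 0.5, and between type III and type I 8.96 and 7.81, or 6.94 with FPKM scaled to the same sum. Leaving out 1 library gave 4.46 to 4.97, 2.098 to 2.602 and 6.99 to 7.14 for the 3 differences. Kl moved to 1.57 and 0.63 (type III minus type II) and to 1.67 and 0.67 (type III minus type I) with those pseudocounts. In 135 alternative fits of Fgfr1, Fgfr2 and Fgfr3, 0 gave a call (lowest adjusted p 0.127, for Fgfr3 with the replicate block) and 2 changed sign: without 1 library, Fgfr2 between type III and type II ranged from -0.3842 to 0.0819, above 0 without type III replicate 1, and Fgfr3 between type II and type I from -0.1238 to 0.1974, below 0 without type II replicate 1. The cause was not tested.

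The number of genes called depended on the settings. Between type II and type I (46) it was 12 with no filter, 102 with equal sums, 103 with quantile normalization, 183 with the replicate block, 15 without trend, 29 with the 2 subsets alone and 12 to 33 without 1 library. Between type III and type II (26) the same settings gave 0 (1354 at an unadjusted p under 0.05), 126, 90, 229, 10, 7 and 2 to 14. Between type III and type I (485) no filter gave 317, the block 971 and leaving out 1 library 209 to 404. Equal sums moved the median of all genes from 0.14 to -0.05 between type III and type II and from 0.08 to -0.04 between type III and type I. The split of higher and lower calls went from 11 and 15 to 28 and 98 (22 and 68 with quantile normalization) between type III and type II, and from 38 and 8 to 74 and 28 (73 and 30) between type II and type I.

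Alternatives beyond the block and no filter were applied to the lists after the data had been seen. The feedback list had 0 to 3 calls between type III and type I without 1 library. The heparan sulfate list had 5 with the block, 5 with equal sums and 1 to 3 without 1 library. Its single call between type III and type II became 0 with no filter, a pseudocount of 0.1, no trend, the 2 subsets alone or any library left out, 2 with quantile normalization or equal sums and 3 with the block, which also gave 1 between type II and type I. FGF23 modification had 1 call with the block between type II and type I and 1 between type III and type I, where equal sums also gave 1. Regulators had 1 with the block in both of these, and 1 with quantile normalization or equal sums between type III and type I, where phosphate transporters had 1 with equal sums. The block changed no other call on the lists. At this depth, 3 fragments are 0.157 to 0.271 FPKM for Kl and 0.307 to 0.546 for Fgf23 across the libraries, which limits what can be said of both where they are low.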
